A study of Mus musculus with 28 samples.

Results

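The genes described here mark the hepatic stellate cell and the myofibroblast it can become: Acta2, Tagln, Des, Vim, Pdgfra, Pdgfrb, Lrat, Reln, Lhx2 and Rgs5. They were taken by symbol and are 10 of the 47719 genes listed in each of 10 deposited gene tables. All 10 passed the authors' filter for testing in every table. Liver RNA was sequenced from 28 male C57BL/6 mice, about 6 weeks old at the start, in 7 groups of 4. The lean control group was fed low-fat chow (10% of energy as fat) free of fructose and cholesterol. The other 6 groups were fed for 26 weeks on chow with 40% of energy as fat, with 22% fructose and 2% cholesterol by weight. This NASH diet gives nonalcoholic steatohepatitis, in which a fatty liver becomes inflamed and scarred. From then on they were dosed by mouth once a day for 4 weeks. One group received obeticholic acid (OCA), a semisynthetic bile acid, at 25 mg/kg. Separate groups received tropifexor, an agonist that is not a bile acid, at 0.1 (low), 0.3 (mid) or 0.9 mg/kg (high). Each compound is an agonist of FXR, a bile acid receptor of the nuclear receptor family. The labels name the low, mid and high groups without their doses, so the doses were assigned in rising order. The remaining 2 groups were vehicle groups, one for each compound. The sample titles name these groups as vehicle and were followed, whereas their treatment field gives the compound. The tables' column headers are abbreviations: INT was read as OCA, LJN or LNJ as tropifexor, and a column headed Veh as the vehicle of the compound in that table, and every drug effect rests on this reading. No transgene, knockout or cell-type-specific promoter is named for any group.

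Hepatic stellate cells lie between the hepatocytes and the sinusoidal endothelium. In the healthy liver they are quiescent and store vitamin A as retinyl ester in lipid droplets. In chronic injury they lose these droplets, divide in response to platelet-derived growth factor (PDGF), take up a contractile cytoskeleton and lay down collagen, at which point they are called activated or myofibroblasts. The genes fall into 5 roles. Acta2 (smooth muscle alpha-actin) and Tagln (transgelin) belong to the contractile apparatus. Des (desmin) and Vim (vimentin) are intermediate filament proteins. Pdgfra and Pdgfrb encode the PDGF receptors. Lrat makes the retinyl ester that quiescent cells store, Reln encodes the secreted glycoprotein reelin, and Lhx2 encodes a LIM homeobox transcription factor that in mice restrains stellate cell activation. Rgs5, a regulator of G protein signalling, marks pericytes and other mural cells.

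Each table holds 1 FPKM value (fragments scaled to transcript length and library size) per group, with no value per animal. The spread between animals therefore enters through the authors' Cuffdiff test alone, and the depth of the libraries is unknown. A gene was called when the deposited q, the p adjusted over the genes tested in that table, was under 0.05. In whole liver, fewer cells of a type and less RNA per cell cannot be told apart, and none of these genes is confined to one cell type: Vim is also made by leukocytes and endothelium, and Acta2, Tagln and Rgs5 by vessel walls. The summed FPKM of 7 hepatocyte genes (Alb, Apoa1 and others) lay between 42616 and 74327 in the 7 groups, against 60.9 to 131 for the 10 stellate cell and myofibroblast genes. Tables were scaled separately, by up to 0.188 on the log2 scale, so the levels below are all expressed on the scale of one lean control column.

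By the files' coordinates (mouse build GRCm38), Acta2 lies on chromosome 19 at 34241090 to 34255336, Des on chromosome 1 at 75360329 to 75375012, Vim on chromosome 2 at 13573927 to 13582826, Pdgfra on chromosome 5 at 75152292 to 75198215, Reln on chromosome 5 at 21884454 to 22344702, Lhx2 on chromosome 2 at 38339281 to 38369733, and Rgs5 on chromosome 1 at 169655501 to 169695813. A pair of loci is far wider than the gene itself. The locus given for Tagln (chromosome 9, 45838580 to 45936058) is 15.1 times as long as the GENCODE gene and takes in Bace1, Rnf214 and Pcsk7. Pcsk7 and an antisense gene share 108 and 1241 exon bases with Tagln. The locus given for Lrat (chromosome 3, 82876705 to 83015049) is 12.1 times as long as the gene and takes in Fgg, the fibrinogen gamma chain, which was listed at 1543 FPKM in the tropifexor vehicle group of the mid-dose table, against 4.51 FPKM for Lrat. The rescaled standard errors of the Lrat fold changes (processing section) were at least 1.62 on the log2 scale, against at most 0.56 for any other of the 10 genes, so no change of Lrat was resolvable here. Whether the wide loci set these errors was not tested. Antisense genes also share exon bases with Des (220), Pdgfra (456) and Reln (246). The sources used here do not give whether counting was stranded, and these antisense genes were listed at 0.115 FPKM or less in the lean or vehicle columns.

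The sequences just upstream of the start site are shown for the 3 genes called below lean control at both higher tropifexor doses (Acta2, Des and Rgs5). Those of Lhx2, the only gene called higher with the drug, are shown as well. They come from RefSeq (build GRCm38.p6), 5′ to 3′ on the gene's own strand. For Acta2, GENCODE annotates this stretch as part of a longer first exon, so 2 sites of 30 bases are shown. Capitals mark matches to the CArG box, the site bound by serum response factor, with 1 letter other than A or T allowed in its core. Positions count back from the RefSeq start. RefSeq gives another start for Lhx2, whose upstream bases (chr2:38351058-38351307) are not printed.
Acta2 site at -84 (chr19:34255438-34255467, minus strand): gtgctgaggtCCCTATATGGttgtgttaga
Acta2 site at -34 (chr19:34255388-34255417, minus strand): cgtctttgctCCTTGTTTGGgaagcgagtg
Des (chr1:75360042-75360291, plus strand): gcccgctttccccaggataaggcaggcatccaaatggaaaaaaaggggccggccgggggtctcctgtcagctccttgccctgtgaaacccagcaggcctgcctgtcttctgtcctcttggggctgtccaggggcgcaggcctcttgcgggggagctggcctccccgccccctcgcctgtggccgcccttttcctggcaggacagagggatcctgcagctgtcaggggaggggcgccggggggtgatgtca
Rgs5 (chr1:169655251-169655500, plus strand): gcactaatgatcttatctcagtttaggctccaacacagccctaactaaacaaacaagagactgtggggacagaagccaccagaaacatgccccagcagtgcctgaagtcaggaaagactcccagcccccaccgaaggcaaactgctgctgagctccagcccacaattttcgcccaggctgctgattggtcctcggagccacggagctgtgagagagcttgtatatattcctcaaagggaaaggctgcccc
Lhx2 (chr2:38339031-38339280, plus strand): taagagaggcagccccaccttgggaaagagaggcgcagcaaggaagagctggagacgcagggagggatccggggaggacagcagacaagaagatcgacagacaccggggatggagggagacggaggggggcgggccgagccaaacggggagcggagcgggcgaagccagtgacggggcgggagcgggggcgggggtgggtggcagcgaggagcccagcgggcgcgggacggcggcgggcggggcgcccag

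RefSeq promoters were used for 8 of the 10 genes. None was usable for Tagln, and none was used for Pdgfrb, because promoters on its chromosome (18) were left out for the 10 genes. Within 250 bases upstream, 2 of the 8 genes (Acta2 and Lrat) held a CArG box with up to 1 other core letter, a match present in 8.59% of 32851 promoters. None held an exact CArG box, which 1.47% of promoters held. The IR1 element, the inverted repeat that is the classical FXR response element, was searched on both strands with up to 2 other letters. None of the 8 genes held it in this window, against 0.959% of all promoters. These matches describe letters only.

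The levels in the 7 groups gave 4 patterns, which the plot of levels by group shows side by side. Acta2 stood at 4.54 FPKM in lean liver, 4.60 in the OCA vehicle group, 4.01 with OCA, 4.39 in the tropifexor vehicle group, and 2.41, 1.95 and 1.58 at the low, mid and high doses. Tagln stood at 7.13 FPKM in lean liver, 10.5 and 9.51 in the OCA and tropifexor vehicle groups, 8.99 with OCA, and 5.54, 4.14 and 3.54 at rising dose. Both contractile genes were thus lowest at the high dose, and Acta2 did not differ between lean and vehicle livers beyond the authors' error.
Vim stood at 25.9 FPKM in lean liver, 51.2 and 55.1 in the vehicle groups, 44.8 with OCA, and 54.9, 23.6 and 29.1 at the low, mid and high doses. Pdgfra stood at 1.30 FPKM in lean liver, 2.25 and 2.12 in the vehicle groups, 2.30 with OCA, and 2.83, 0.879 and 1.23 at rising dose. Pdgfrb stood at 3.17 FPKM in lean liver, 5.40 and 5.15 in the vehicle groups, 4.49 with OCA, and 4.22, 2.41 and 2.81 at rising dose. The levels of these 3 genes were above the lean level in the vehicle, OCA and low-dose groups, although Pdgfrb at the low dose was not called against lean control.
Rgs5 stood at 9.30 FPKM in lean liver, 11.2 and 14.0 in the vehicle groups, 9.56 with OCA, and 8.87, 5.76 and 5.06 at rising dose. Des stood at 2.21 FPKM in lean liver, 2.48 and 2.45 in the vehicle groups, 2.24 with OCA, and 2.12, 1.31 and 1.44 at rising dose. Both were thus lowest in the mid- and high-dose groups.
Of the genes of the quiescent cell, Reln stood at 22.7 FPKM in lean liver, 27.8 and 32.2 in the vehicle groups, 20.4 with OCA, and 12.9, 14.5 and 15.4 at rising dose. Lrat stood at 4.95 FPKM in lean liver, 5.93 and 4.53 in the vehicle groups, 4.08 with OCA, and 2.68, 1.66 and 1.57 at rising dose. Lhx2 ran the other way, with 2.41 FPKM in lean liver, 1.98 and 2.08 in the vehicle groups, 1.64 with OCA, and 3.53, 4.76 and 4.36 at rising dose. With each gene's 7 groups put in order, only 2 of the 60 steps between neighbours passed a test. These were Pdgfra in the tropifexor vehicle group over lean control, by the deposited Cuffdiff test, and Rgs5 at the low over the mid dose, by the test of the difference of effects.

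**Figure D1:**
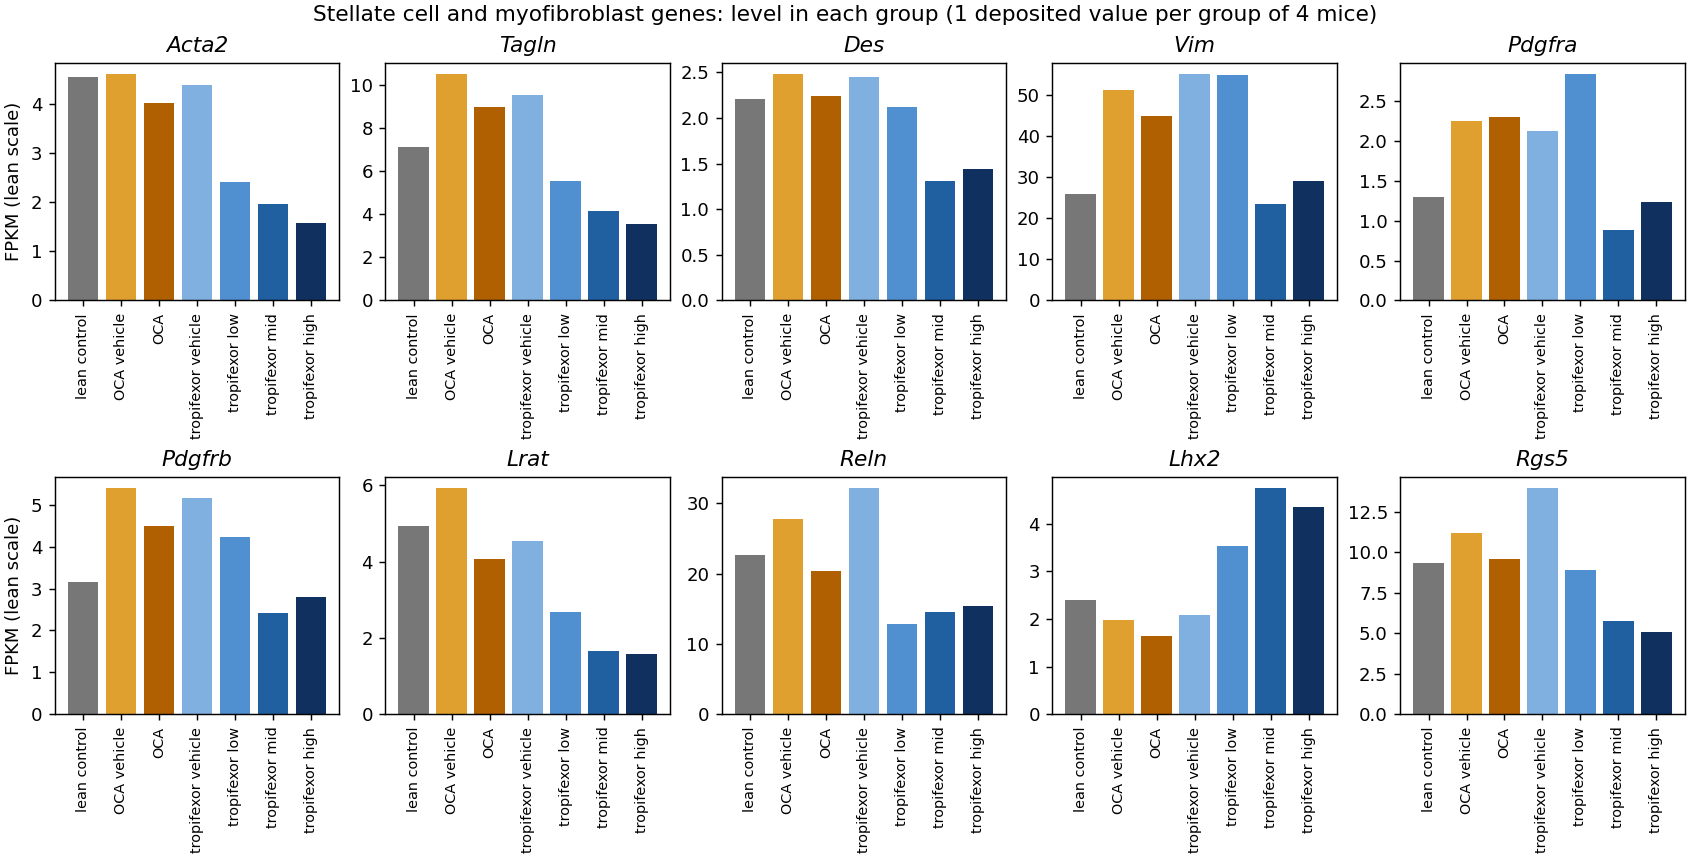
Level of each of the 10 genes (FPKM, each panel with its own axis from 0) in the 7 groups; each bar is 1 deposited group value put on the lean scale, without an error bar because no value per animal was used. Vim, Pdgfra and Pdgfrb are low in lean, mid-dose and high-dose liver, while Lhx2 is highest at the mid dose (4.76 FPKM).

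The first comparison sets both vehicle groups on the NASH diet against lean control, and its result is called the diet effect below. No dosing and no length of feeding are given for lean control. Effects of the diet therefore cannot be told apart from those of vehicle dosing or time on the diet. The PDGF receptors and vimentin rose, and the contractile genes did not pass the test. On the log2 scale, Vim rose by 0.98 (SE 0.17) with the OCA vehicle and by 1.09 (SE 0.19) with the tropifexor vehicle, by the fold changes in the authors' deposited tables. Here and below, only the fold changes and q values are the authors' own. Each SE and 95% interval was computed here from the rescaled standard error (processing section). The unscaled error is 2.03 to 2.05 times as wide. Pdgfra rose by 0.79 (SE 0.17) and 0.71 (SE 0.18), and Pdgfrb by 0.77 (SE 0.12) and 0.70 (SE 0.13), with deposited q values of 0.000588 and 0.000507 for each of the 3 genes. Rgs5 rose by 0.59 (SE 0.13, q = 0.000507) in the tropifexor vehicle group, and its value of 0.26 in the OCA vehicle group did not pass the test (q = 0.115) in the authors' deposited table. Acta2 differed from lean control by 0.02 (q = 0.975) and -0.05 (q = 0.921) in the authors' deposited tables, with 95% intervals from -0.26 to 0.30 and from -0.36 to 0.26. Tagln was at 0.56 (q = 0.444) and 0.42 (q = 0.589) there, Des at 0.17 and 0.15, Reln at 0.29 and 0.50, and Lhx2 at -0.28 and -0.21, none of them called. In all, 3 of 10 genes were called higher in the OCA vehicle group, where 11.4% of all tested genes were, and 4 of 10 in the tropifexor vehicle group, where 12.1% were. None was called lower. The median change of the 10 genes was 0.28 and 0.46 on the log2 scale, against 0.02 and 0.01 for all tested genes. The diet effects of the vehicle groups share the lean control group. Their difference passed the normal test with Benjamini-Hochberg adjustment for 0 of the 10 genes, and 0 reached an unadjusted p under 0.05, with 0.381% of all genes called.

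Macrophage markers moved with the same contrast. Of 10 such genes, 7 rose and 1 fell in each vehicle group, where 11.4% and 12.1% of all tested genes rose and 6.56% and 8.53% fell, with a summed level of 149 FPKM in lean liver, 348 and 342 FPKM in the vehicle groups, and none at 0. Their part in the rise of Vim was not tested.

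No gene passed the test under OCA at 25 mg/kg. Against its own vehicle, 0 of 10 were called by Cuffdiff and 1 (Pdgfrb) had an unadjusted p under 0.05, where 4.04% of all tested genes were called. The deposited log2 fold changes ran from -0.55 (Lrat) to 0.03 (Pdgfra), with a median of -0.23 against -0.01 for all tested genes. Pdgfrb was at -0.27 (SE 0.12, 95% interval -0.52 to -0.03, q = 0.324) in the authors' deposited table. Acta2 was at -0.20, Vim at -0.20 and Rgs5 at -0.23 in the same deposited table. Their computed 95% intervals were -0.50 to 0.09, -0.54 to 0.15 and -0.47 to 0.01. For these 4 genes the fall seen at the mid tropifexor dose lies outside the OCA interval. This leaves out the error of the mid-dose fall and rests on the rescaled error. The difference of the effects is tested below, where 0 of 10 genes differed at the mid dose with the unscaled error.

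By the calls, tropifexor lowered most of the genes at the mid and high doses and few at the low dose. A call at 1 dose and not at another is not a difference between doses, which is tested further below. Called or not, fold changes were negative for 8 of 10 genes at the low dose and for 9 of 10 at each higher dose. At the low dose 3 of 10 fell and none rose, where 5.20% of all tested genes fell. The mid dose lowered 8 of 10 and raised 1, where 15.7% fell and 11.8% rose. At the high dose 8 of 10 fell and 1 rose, where 15.5% fell and 9.93% rose. The median changes of the 10 genes at rising dose were -0.47, -1.18 and -0.98 on the log2 scale, against 0.00, -0.01 and -0.05 for all tested genes. The 3 doses share 1 vehicle group, so their counts are not independent of each other.

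Of the contractile genes, Acta2 fell at every dose, to 55.1%, 44.7% and 36.4% of the vehicle level at the low, mid and high doses. Its log2 fold changes were -0.86 (SE 0.23, q = 0.0107), -1.16 (SE 0.18, q = 0.000361) and -1.46 (SE 0.19, q = 0.000396) in the authors' deposited tables. Tagln fell by 1.19 (SE 0.42, q = 0.0273) at the mid and by 1.41 (SE 0.46, q = 0.0308) at the high dose, and stood at -0.78 (q = 0.481) at the low dose, in the authors' deposited tables. Of the intermediate filament genes, Vim stood at -0.01 (q = 0.996) at the low dose, fell by 1.22 (SE 0.19, q = 0.000361) at the mid dose and fell by 0.91 (SE 0.19, q = 0.000396) at the high dose in the same source. Des fell to 53.9% (q = 0.000361) and 59.5% (q = 0.00200) of vehicle at the mid and high doses and was at 86.5% (q = 0.775) at the low dose, by the deposited values.

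The PDGF receptors had the same calls as Vim, Tagln and Des. Pdgfra, a receptor of PDGF-A and PDGF-C, stood at 0.42 (SE 0.22, q = 0.193) at the low dose in the authors' deposited table. It then fell by 1.26 (SE 0.20, q = 0.000361) and by 0.77 (SE 0.18, q = 0.000396) at the mid and high doses in the authors' deposited tables. Pdgfrb, a receptor of PDGF-B, stood at -0.29 (SE 0.18, q = 0.405) at the low dose in the authors' deposited table. It then fell by 1.09 (SE 0.14, q = 0.000361) and by 0.86 (SE 0.13, q = 0.000396) at the mid and high doses in the authors' deposited tables. For both receptors, and for Vim and Des, the value nearest the vehicle level was that of the low dose. The same held for Acta2, Tagln, Rgs5, Lrat and Lhx2, and Reln alone departed from it.

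Rgs5 fell at every dose, to 63.7% (q = 0.00258), 41.5% (q = 0.000361) and 36.7% (q = 0.000396) of vehicle by the deposited values. Reln also fell at every dose, by 1.32 (SE 0.37, q = 0.00845), 1.15 (SE 0.37, q = 0.00736) and 1.05 (SE 0.34, q = 0.00873) on the log2 scale in the authors' deposited tables. Reln, a marker of quiescent stellate cells, therefore fell together with genes of the activated cell. Lhx2, the factor that restrains activation, rose by 1.19 (SE 0.42, q = 0.0256) at the mid dose and by 1.08 (SE 0.39, q = 0.0400) at the high dose, and stood at 0.76 (SE 0.49, q = 0.242) at the low dose, in the authors' deposited tables. At a q threshold of 0.01 the calls of Lhx2 and Tagln at both doses and that of Acta2 at the low dose (q = 0.0107) are lost. Lrat stood at -0.76, -1.45 and -1.51, with q values of 0.876, 0.606 and 0.622 in the authors' deposited tables and standard errors near or above its changes.

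**Figure D2:**
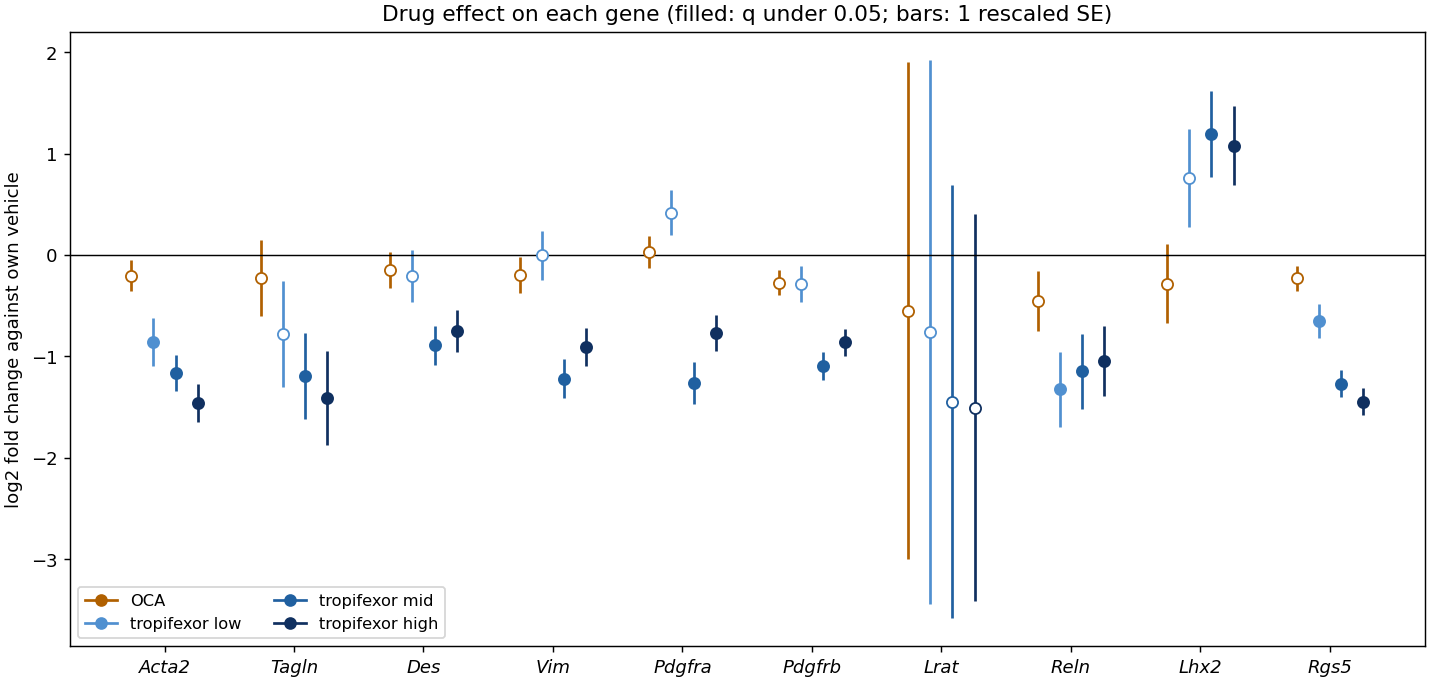
Log2 fold change of each gene against its own vehicle for OCA and for the 3 tropifexor doses; filled points have a deposited q under 0.05, and bars show 1 rescaled standard error to each side. All 10 OCA points are open, and Acta2, Reln and Rgs5 are the only genes with a filled point at the low dose.

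Against lean control, the treated livers were above lean in some genes and below it in others. With OCA, Vim (0.79, q = 0.00117), Pdgfra (0.83, q = 0.000624) and Pdgfrb (0.50, q = 0.000624) were higher than in lean liver in the authors' deposited table, 3 of 10 genes where 10.3% of tested genes were higher. At the low dose of tropifexor, Vim (1.08, q = 0.000426) and Pdgfra (1.13, q = 0.000426) were higher and Acta2 (-0.91, q = 0.000801) was lower in the authors' deposited table. That made 2 of 10 higher and 1 lower, where 13.8% of tested genes were higher and 10.1% lower.
Livers of the mid dose had 5 of 10 genes below lean control, where 11.5% of tested genes were, and Lhx2 alone was above it (0.98, SE 0.36, q = 0.0307), where 11.7% were. The authors' deposited table gave -1.21 for Acta2, -0.75 for Des, -0.69 for Rgs5 (each q = 0.000418), -0.56 for Pdgfra (q = 0.00891) and -0.39 for Pdgfrb (q = 0.0145). At the high dose, Acta2 (-1.52, q = 0.000346), Rgs5 (-0.88, q = 0.000346) and Des (-0.62, q = 0.00953) were below lean control in the authors' deposited table, 3 of 10 genes where 15.2% of tested genes were lower. Lhx2 stood at 0.86 (q = 0.0541) there. Vim stood at -0.14 at the mid and at 0.17 at the high dose against lean control by the deposited values. The computed 95% intervals were -0.49 to 0.21 and -0.17 to 0.50. Acta2, Des and Rgs5 were thus called below lean control at both doses, with Acta2 at 43.1% and 34.8% of lean. The levels of Tagln, Lrat and Reln were also below the lean level at both doses, without a call. These comparisons share the lean control group.

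The effects of the compounds were then set against each other, each taken against its own vehicle. The doses in mg/kg differ between the compounds, so the differences below describe these dose groups only. A difference of effects was called at an adjusted p under 0.05 in a normal test with Benjamini-Hochberg adjustment over all genes usable in both tables. The mid dose lowered 6 of 10 genes further than OCA, where 7.24% of 15158 genes fell further. The difference was -1.29 for Pdgfra (95% interval -1.80 to -0.79), -1.04 for Rgs5 (-1.39 to -0.69) and -1.02 for Vim (-1.53 to -0.51). It was -0.96 for Acta2 (-1.41 to -0.50), -0.82 for Pdgfrb (-1.18 to -0.46) and -0.74 for Des (-1.25 to -0.23). The contractile actin, both receptors, both filament genes and the mural cell gene were therefore among the genes with a larger response. At the high dose 4 of 10 fell further than with OCA, where 7.15% of all genes did. These were Acta2 at -1.25 (95% interval -1.72 to -0.78), Rgs5 at -1.22 (-1.57 to -0.87), Pdgfra at -0.80 (-1.26 to -0.33) and Pdgfrb at -0.59 (-0.94 to -0.23). Vim was at -0.71 (-1.21 to -0.20) and Des at -0.60 (-1.13 to -0.07), neither called.
For the low dose, 0 of 10 genes differed from OCA by the same test, 2 (Acta2 and Rgs5) had an unadjusted p under 0.05, and 5.24% of all genes were called. The interval was -1.20 to -0.11 for Acta2 and -0.15 to 0.92 for Pdgfra. Lhx2 stood 1.48 (0.35 to 2.60) above its OCA effect at the mid and 1.36 (0.28 to 2.45) at the high dose, and neither difference was called. Tagln stood at -0.97 (-2.07 to 0.14) and -1.18 (-2.35 to -0.01), and Reln at -0.69 (-1.61 to 0.23) and -0.59 (-1.47 to 0.29), also not called. The calls rest on the rescaled standard error: with the wider, unscaled error 0 of 10 genes differed from OCA at the mid dose and 1 (Rgs5) at the high dose.

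**Figure D3:**
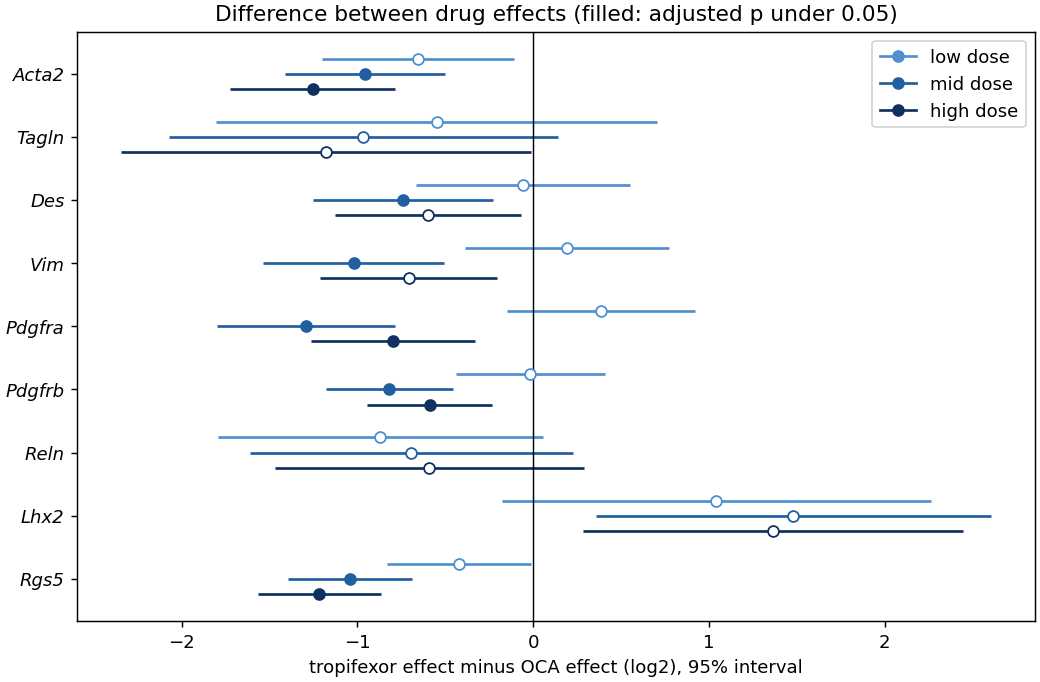
Tropifexor effect minus OCA effect on the log2 scale for 9 genes at the 3 doses, with 95% intervals; filled points have a Benjamini-Hochberg adjusted p under 0.05, and Lrat is left out because its intervals run past -7 and 5. The mid-dose points of Acta2, Des, Vim, Pdgfra, Pdgfrb and Rgs5 are filled and lie at -0.74 or lower, and no low-dose point is filled.

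Between doses, most called differences lay between the low and the mid dose. Pdgfra was lower at the mid than at the low dose (difference -1.68, 95% interval -2.27 to -1.09). The same difference was -1.21 for Vim (-1.82 to -0.61), -0.80 for Pdgfrb (-1.24 to -0.36) and -0.62 for Rgs5 (-1.04 to -0.20). That was 4 of 10 genes lower by the normal test with Benjamini-Hochberg adjustment, where 6.57% of all genes were lower. From low to high dose the difference was called for Pdgfra at -1.18 (-1.74 to -0.63) and for Rgs5 at -0.80 (-1.21 to -0.38), 2 of 10 where 4.17% were lower. With the unscaled error these counts were 0 and 0. From mid to high dose 0 of 10 genes differed, none at an unadjusted p under 0.05, where 2.32% of all genes were called by the normal test. The interval of that step was -0.80 to 0.21 for Acta2 and -0.03 to 1.03 for Pdgfra. Acta2, in which the level was lower at each dose step, was at -0.30 (-0.88 to 0.27) from low to mid and at -0.60 (-1.18 to -0.01) from low to high dose, and neither was called. Reln was at 0.18 (-0.85 to 1.20) and 0.28 (-0.71 to 1.26) for these steps. The doses share a vehicle group, which makes the summed variance used here conservative.

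The wider lists of the same cells and pathways moved in different directions. Their counts below are to be read against the shares of all tested genes. In the OCA and tropifexor vehicle groups against lean control 11.4% and 12.1% rose and 6.56% and 8.53% fell. With OCA 1.81% rose and 2.23% fell. With tropifexor 6.03%, 11.8% and 9.93% rose and 5.20%, 15.7% and 15.5% fell at the low, mid and high doses. The activated stellate cell and myofibroblast list (20 genes, Acta2 and Tagln among them) is the program of matrix deposition. Of its 17 tested genes, 13 rose and none fell in each vehicle group against lean control, with medians of 1.45 and 1.66 on the log2 scale. The collagen chain gene Col1a1 rose by 2.71 and 3.16 and the collagen cross-linking enzyme gene Lox by 3.03 and 3.07 in the authors' deposited tables. Acta2 and Tagln were among the 4 genes not called in each vehicle group. With OCA 1 of 17 rose (the proteoglycan gene Lum, 0.46, q = 0.0103 in the authors' deposited table) and none fell. With tropifexor 8 of 17 fell and 1 rose at the low dose, 15 fell and none rose at the mid dose, and 14 fell and 1 rose at the high dose, with medians of -0.78, -1.53 and -1.46. With the mid dose Col1a1 fell by 3.03, Lox by 2.95, Tnc (tenascin C) by 2.80 and Col3a1 by 2.68, each with q = 0.000361 in the authors' deposited table. Postn (periostin) was the gene that rose at the high dose, by 0.90 (q = 0.000396) in the authors' deposited table, and was chosen for mention after its value was seen.

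The quiescent stellate cell list (19 genes, with Lrat, Reln and Lhx2) was split. By the mid dose 10 of 19 fell and 4 rose, with a median of -0.73, where 15.7% and 11.8% of all tested genes did. At the high dose 8 fell and 4 rose, with a median of -0.39, where 15.5% and 9.93% did. Hhip, an inhibitor of hedgehog signalling, rose by 2.07 (q = 0.00128) at the mid dose, while Adamtsl2 fell by 1.70 and Ngfr (the low-affinity nerve growth factor receptor) fell by 1.32, each with q = 0.000361 in the authors' deposited table. In the vehicle groups against lean control, Hhip was lower (-1.71 and -1.60) and Adamtsl2 (1.69 and 1.57) was higher in the authors' deposited tables. Hhip and Lhx2 thus both rose at the mid dose, while Reln and Ngfr fell. Hhip also rose at the high dose, by 2.22 (q = 0.000396) in the authors' deposited table. With OCA 0 of 19 were called by Cuffdiff.

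The pericyte list (Rgs5, Pdgfrb and Des among 11 genes, 9 tested) fell in most of its members. With the mid dose 9 of 9 fell, with a median of -0.94, and at the high dose 7 of 9, with a median of -0.86. Kcnj8 and Abcc9, which encode the subunits of a mural cell potassium channel, fell by 1.75 and by 0.89 at the mid dose, and the receptor gene Notch3 fell by 1.03, each with q = 0.000361 in the authors' deposited table. Only 1 of 9 fell at the low dose (Rgs5) and 1 rose (Angpt1, 0.93, q = 0.0313 in the authors' deposited table). In the OCA and tropifexor vehicle groups against lean control 2 and 3 of 9 rose, where 11.4% and 12.1% of all tested genes did. The smooth muscle list (17 genes, 14 tested against vehicle, Acta2 and Tagln among them) was split. Of its genes 4 of 14 rose and 4 fell at the mid dose, where 11.8% and 15.7% of all tested genes did, with a median of -0.21: Tpm2 (beta-tropomyosin) rose by 1.13 and Tpm1 (alpha-tropomyosin) fell by 0.71, each with q = 0.000361 in the authors' deposited table. Myh11, the smooth muscle myosin heavy chain, fell by 0.66 and 0.94 in the vehicle groups against lean control (q = 0.000588 and 0.000507) in the authors' deposited tables. The list as a whole was split there too. Of 15 tested genes, 2 rose and 2 fell with the OCA vehicle, where 11.4% and 6.56% of all tested genes did. With the tropifexor vehicle 1 rose and 3 fell, where 12.1% and 8.53% did. The medians were 0.02 and -0.03.

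The signalling pathways upstream of these cells were counted in the same way. Of 12 PDGF pathway genes, 8 and 7 rose in the vehicle groups and none fell. Pdgfb, which encodes a ligand of PDGFR-beta, rose by 1.19 and 1.07, and Pdgfa by 0.92 and 0.83, in the authors' deposited tables. By contrast 6 of 12 fell and none rose at the mid dose, including the ligand genes Pdgfc (-1.47), Pdgfb (-1.40) and Pdgfd (-0.64) in the authors' deposited table. At the low dose none fell and 2 rose, the kinase gene Src (1.31, q = 0.000968) and Pdgfd (1.04, q = 0.00180) in the authors' deposited table, and with OCA none was called. Of 17 tested TGF-beta pathway genes, 7 and 9 rose and 2 and 1 fell in the vehicle groups. At the mid dose 9 fell and none rose, with Ltbp2 (a latent TGF-beta binding protein) at -2.38 and Ctgf (connective tissue growth factor) at -1.74 in the authors' deposited table. At the low dose 2 of 19 rose (Itgb8 by 2.02 and Tgfb2 by 1.31 in the authors' deposited table) and none fell, where 6.03% of all tested genes rose. With so few genes, the low-dose counts of both pathways are not set apart from that share. The lists share members with each other and with the 10 genes, and the counts describe them without a test of the list.

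**Figure D4:**
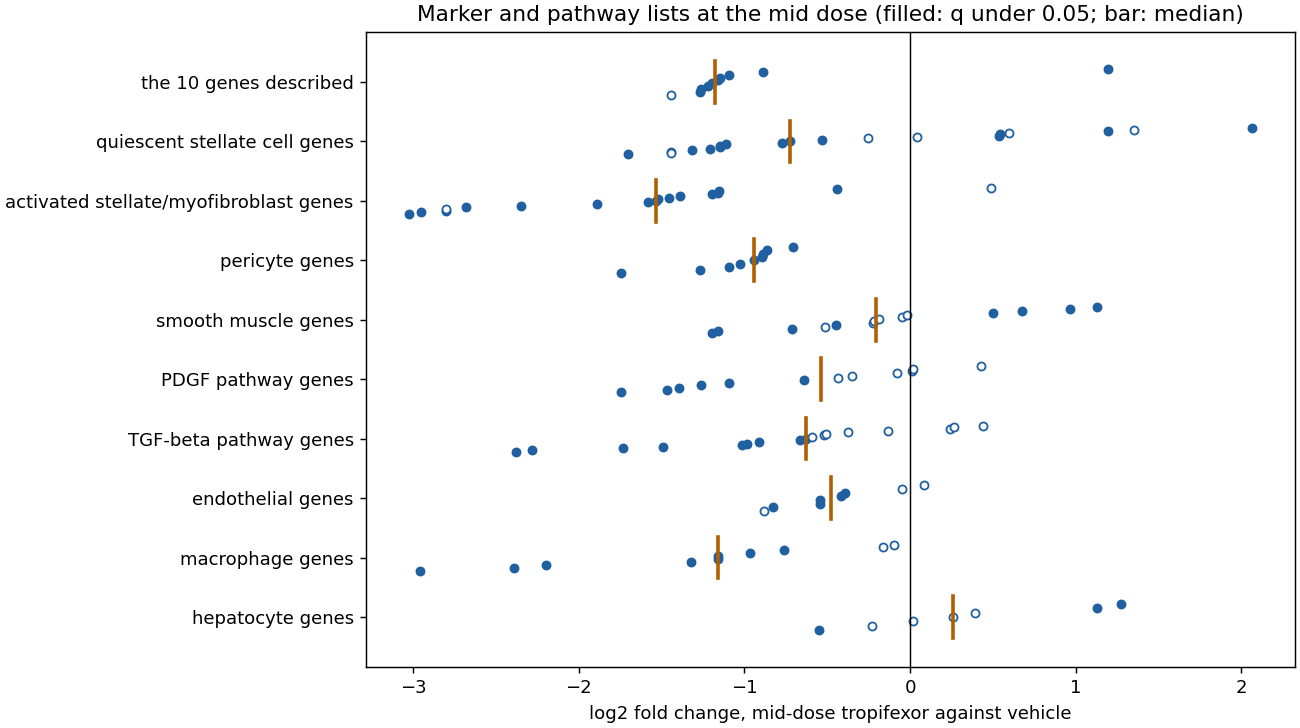
Log2 fold change at the mid tropifexor dose for the tested genes of 10 lists; each point is 1 gene, filled where the deposited q is under 0.05, and the bar is the list's median. The activated list lies furthest to the left (median -1.53), the quiescent list spreads to both sides, and the smooth muscle list is centred at -0.21.

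Markers of other liver cells moved in the same comparisons, in which 15.7% and 15.5% of all tested genes fell and 11.8% and 9.93% rose at the mid and high doses. Of 10 macrophage genes, 8 fell and none rose at the mid dose, with Gpnmb at -2.96 and Trem2 at -2.39 in the authors' deposited table, and at the high dose 6 fell. Their summed level was 364 FPKM at the low dose, where none of the 10 was called, 168 at the mid and 229 at the high dose, against 342 FPKM in the vehicle group. The order of these sums (low, high, mid) was also that of Vim, Pdgfra, Pdgfrb and Des. It was not particular to macrophages. The sums of the lymphocyte and neutrophil list and of the mesothelial and portal fibroblast list had it too. So did those of the activated stellate cell and myofibroblast, pericyte, intermediate filament, cholangiocyte and proliferation lists. Those of the endothelial and hepatocyte lists did not. Nor did those of the quiescent stellate cell, smooth muscle, PDGF, TGF-beta, retinoid and reelin lists. None of the 10 stellate cell and myofibroblast genes was called between the mid and high doses. The part of macrophages in the falls of Vim, Pdgfra, Pdgfrb and Des was not tested. With OCA 3 of 10 macrophage genes fell and their sum was 266 FPKM. Of 8 endothelial genes, 5 fell at the mid and 4 at the high dose, with the sinusoidal marker Stab2 at -0.83 at the mid dose in the authors' deposited table, and with sums of 77.7 FPKM in the vehicle group and 55.8, 61.9 and 63.0 at rising dose. Of the tested lymphocyte and neutrophil genes, 6 of 8 fell at the mid dose, where their sum was 8.57 FPKM against 19.8 in the vehicle group and 27.6 at the low dose, with none of 9 called there. Of 9 tested mesothelial and portal fibroblast genes 4 fell at the mid dose, with Eln (elastin) at -2.04 and Dpt (dermatopontin) at -1.81 in the authors' deposited table, and their sum was 16.7 FPKM against 32.3 in the vehicle group. At the low dose 2 of 10 rose and 1 fell, with a sum of 53.4 FPKM. Of 7 hepatocyte genes 2 rose and 1 fell at the mid dose, with a median of 0.26. No marker of the macrophage, endothelial, lymphocyte and neutrophil, mesothelial and portal fibroblast or hepatocyte lists was at 0 in any group. The part of these cells in the changes of the stellate cell genes was not tested.

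For the 3 genes that rose in both vehicle groups, the most similar profiles were sought among 12689 genes, as the smallest root mean square difference of log2 fold change against lean control over the 6 groups on the NASH diet. The nearest to Vim were Tspan3 (0.0583), Arhgap30 (0.0783) and Plcg2 (0.0806). The nearest to Pdgfra were Chaf1b (0.0931), Ptpre (0.107) and Tbx20 (0.124), and the nearest to Pdgfrb were Prex1 (0.0756), Mis18a (0.0837) and Lamc1 (0.0855). The 6 values share the lean control group, and the likeness is a description only.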

How the data were processed

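Liver RNA of 28 mice in 7 groups of 4 was extracted with Trizol and sequenced from TruSeq Stranded mRNA libraries, according to the labels. Per the submitters' processing notes, which give neither role nor order, STAR 2.5.1b, Cufflinks 2.2.1, Cuffdiff, Cuffnorm, bcl2fastq and build GRCm38 were used. The FPKM values are the authors' deposited group values, 1 per group and table, per the file headers. Each log2 fold change (second group over first), its test statistic (a score), its p-value and its q-value were likewise deposited by the authors, from Cuffdiff per the file headers. No p-value was below 5e-05. Tables had 15208 to 16144 tested genes; depth is unknown, and no FPKM carries an interval.

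A gene was called at status OK and deposited q under 0.05. The standard error of a fold change is its ratio to the test statistic, divided by the table's median ratio of the z of the deposited p to the statistic (2.03 to 2.05, genes with p between 0.0002 and 0.9). Effects were compared by a normal test of the difference of the log2 fold changes with summed variance, with p-values adjusted by the Benjamini-Hochberg method over all genes usable in both tables, called at an adjusted p under 0.05. Levels are the lean value of the tropifexor vehicle table times each group's fold change against lean control; a drug effect reached through lean control differed from the direct one by at most 0.0185 on the log2 scale. Promoter windows are the 250 bases upstream of the RefSeq start.

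The members and lists were chosen with earlier results of these data known. The 10 genes were all named; of each of the 16 lists at most 4 called genes of largest change were named, beside genes named as singled out, and some genes are not reported here; and 3 most similar genes for each gene called in both vehicle groups. Python 3.11.15, pandas 2.3.3 and scipy 1.17.1 were used. The alternatives were a q threshold of 0.01, a minimum of 1 FPKM, centring on the table's median, a pseudocount of 1 and the unscaled error. The differences of mid from low and high from mid dose were added after seeing the data.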

Additional observations from a re-analysis of the deposited data

How the results depend on the processing

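The counts and directions of the 10 genes were recomputed under each alternative. Centring fold changes on the table's median turned 1 of 100 fold changes, that of Vim at the low dose against vehicle (from -0.01 to 0.0038, q = 0.996 throughout). The pseudocount of 1 turned none. At a q threshold of 0.01 the count of genes called higher went from 1 to 0 at the mid dose against vehicle, at the high dose against vehicle and at the mid dose against lean control (Lhx2 in each case). With a minimum of 1 FPKM it went from 0 to 1 at the high dose against lean control (Lhx2), and the Vim differences between the high dose and OCA and between the high and low doses became calls. With the unscaled error, the count of genes lower than with OCA went from 6 to 0 at the mid dose and from 4 to 1 at the high dose, that of high minus low dose from 2 to 0 and that of mid minus low dose from 4 to 0. All other counts stayed within 1.5 times and on the same side. Leaving out each replicate was not run, since the tables used hold 1 value per group. No paired analysis was possible because the columns carry no replicate. With 4 animals a group and unknown depth, missed thresholds do not show that levels were equal, least of all for Lrat and Tagln.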

Other observations

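Other genes of retinoid handling, reelin signalling and the intermediate filaments, which surround Lrat, Reln, Des and Vim in their pathways, moved in both directions. Of 16 tested retinoid storage and signalling genes, 8 fell and 5 rose at the mid tropifexor dose, where 15.7% and 11.8% of all tested genes did. Cyp26a1, which breaks down retinoic acid, rose by 2.87 and Rdh11, a retinal reductase, by 2.74, while Cyp26b1, another retinoic acid hydroxylase, fell from 0.994 to 0.217 FPKM, each with q = 0.000361 in the authors' deposited table. Against lean control, Rdh11 was lower with either vehicle (-2.73 and -2.64) in the authors' deposited tables. With OCA, Rdh11 rose by 0.92 and Cyp26b1 fell by 1.29 (each q = 0.00268) in the authors' deposited table. They were the only called genes of the list, 1 higher and 1 lower of 16, where 1.81% and 2.23% of all tested genes were. Counts this small set no contrast with the 10 genes, none of which was called.

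Vldlr, one of the reelin receptors, was listed at 1.28 FPKM in the vehicle group and 0.0412 FPKM at the mid dose, a log2 fold change of -4.95 (q = 0.000361), and at -2.67 (q = 0.000968) at the low and -4.81 (q = 0.000396) at the high dose in the authors' deposited tables. Reln and Vldlr thus both fell at all 3 doses, which share a vehicle group. At the mid dose 2 of 5 tested reelin pathway genes fell and 1 rose. Of 10 tested intermediate filament genes 3 fell and 1 rose there, where 15.7% of all tested genes fell and 11.8% rose. Of the intermediate filament genes, Synm (synemin, which assembles with desmin and vimentin) rose by 2.40 (q = 0.000681) at the mid and by 3.89 (q = 0.000396) at the high dose in the authors' deposited tables, while Des and Vim fell. At the low dose Krt19, Krt18 and Krt8, keratins of bile duct cells and hepatocytes, were higher by 1.22, 0.86 and 0.63 by the authors' deposited table. There 4 of 7 cholangiocyte genes rose, where 6.03% of all tested genes did. Of 6 tested at the mid dose 2 fell and none rose, where 15.7% and 11.8% did, and the difference between the doses was not tested for these genes.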
